A study of Homo sapiens with 9 samples.

Results

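MALAT1, NEAT1, CYTOR and MIR4435-2HG are 4 long non-coding RNA genes of the 58174 genes counted in ES-2 cells, an established line derived from an ovarian carcinoma. They were taken by gene name. CYTOR and its paralog MIR4435-2HG, written MIR4435.2HG in the tables, were chosen because their FPKM rose upon IGF2BP1 depletion, and MALAT1 and NEAT1 for comparison because they are abundant nuclear RNAs. The IGF2BP1 comparison of these 4 genes is therefore given as a description, without a test. The name MALAT1 stands in the tables on a row for a 95-base gene model inside the gene (ENSG00000278217), which had 0 reads in all 9 libraries, whereas the long non-coding RNA (ENSG00000251562) stands on a row named MALAT1.1. The values below are those of ENSG00000251562, ENSG00000245532 (NEAT1), ENSG00000222041 (CYTOR) and ENSG00000172965 (MIR4435-2HG), and all 4 passed the filter on low values.

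MALAT1 and NEAT1 are neighbours on chromosome 11 and stay in the nucleus. MALAT1 gathers in nuclear speckles, which hold splicing factors, and NEAT1 is the scaffold of paraspeckles, bodies that assemble around its long isoform with the proteins NONO and SFPQ. Neither gene ends by ordinary polyadenylation alone: RNase P cleaves MALAT1 and the long NEAT1 isoform before a small tRNA-like RNA, and the remaining end is guarded by a triple helix. CYTOR (also LINC00152) and MIR4435-2HG are copies of each other on chromosome 2 whose transcripts have been studied mostly as RNAs raised in tumours, and each carries a locus for the microRNA miR-4435.

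Cells were transfected with a control siRNA (siC), an siRNA pool directed against IGF2BP1 (siIGF2BP1, an oncofetal RNA-binding protein) or one against SRF (siSRF, the serum response factor), and total RNA depleted of ribosomal RNA was sequenced 72 h later, in 3 libraries per group. All groups were cells of the same line, and the labels give no difference but the siRNA. Whether the groups were grown, prepared and sequenced together is not given. The labels do not say whether the libraries of a group came from separate cultures, so p-values measure the spread between these libraries, which may be technical. In bulk RNA, fewer cells that express a gene and less RNA per cell cannot be told apart.

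Between 6421764 and 9416175 reads were counted on genes per library. IGF2BP1 was at 12.8 ± 0.689 FPKM (fragments per kilobase of gene length, scaled to library size; SD, n = 3) in siC and at 4.11 ± 0.0846 in siIGF2BP1, and SRF fell from 14.5 ± 1.28 in siC to 1.47 ± 0.145 FPKM in siSRF (limma, adjusted p = 0.000141 and 6.07e-05). SRF was also lower in siIGF2BP1, at 6.01 ± 0.714 FPKM (limma, adjusted p = 0.00111). Of the cell type markers, VIM, KRT18 and KRT8 were expressed, at 1056 ± 9.38, 43.4 ± 2.08 and 8.81 ± 0.342 FPKM in siC. KRT8 rose to 12.9 ± 0.903 in siIGF2BP1, and in siSRF KRT18 rose to 81.7 ± 3.44 and VIM fell to 853 ± 27.9 FPKM (limma, adjusted p = 0.00455, 0.000329 and 0.0091), of which only the KRT18 call held whichever 1 library was left out. In contrast, the epithelial and ovarian carcinoma markers EPCAM, PAX8 and KRT19 lay between 0 and 0.262 FPKM. PTPRC, CD3E and ALB were at 0, and LYZ and PECAM1 did not exceed 0.387 FPKM in any library.

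CYTOR and MIR4435-2HG share the sequence around the starts that RefSeq gives them. The windows from 250 bases before to 50 bases after the RefSeq start (GRCh38.p14) are printed because they show how alike the copies are there. Capitals mark TGAGTCA, the binding motif of the AP-1 factors FOS and JUN, which was looked up after the windows had been read. CYTOR lies at chr2:87454781-87636740 on the plus strand and MIR4435-2HG at chr2:111006015-111523376 on the minus strand (GENCODE, hg38), so that both windows lie inside the outer bounds of these gene models and not in front of them.
CYTOR, chr2:87455177-87455476, plus strand: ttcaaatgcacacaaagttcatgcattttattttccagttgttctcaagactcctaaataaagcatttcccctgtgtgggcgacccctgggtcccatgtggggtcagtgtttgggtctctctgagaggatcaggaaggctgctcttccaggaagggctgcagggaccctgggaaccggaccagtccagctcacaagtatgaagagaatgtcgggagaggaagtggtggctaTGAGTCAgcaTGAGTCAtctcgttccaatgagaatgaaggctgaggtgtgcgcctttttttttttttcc
MIR4435-2HG, chr2:111495112-111495411, minus strand: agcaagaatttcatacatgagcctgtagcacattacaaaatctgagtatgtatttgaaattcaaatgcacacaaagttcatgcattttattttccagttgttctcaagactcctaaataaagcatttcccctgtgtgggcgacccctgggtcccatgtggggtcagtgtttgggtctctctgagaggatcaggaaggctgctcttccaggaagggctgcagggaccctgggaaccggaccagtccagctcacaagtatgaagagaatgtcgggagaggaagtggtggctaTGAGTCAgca
Shifted by 59 bases, the windows overlapped in 241 bases, of which 241 were identical. In the genome the identical run went on for 395 bases, from chr2:87455079-87455473 for CYTOR and chr2:111495056-111495450 for MIR4435-2HG. That run held TGAGTCA at 2 positions in both genes. The CYTOR window held both matches, beginning 19 and 9 bases before its RefSeq start. The MIR4435-2HG window ended before the second and held 1, which began 40 bases behind the RefSeq start of that gene. On either strand, 4.96% of 34943 windows of this size held TGAGTCA. A CArG box, the motif bound by SRF, was found in none of the windows of CYTOR, MIR4435-2HG and MALAT1, and in 1.30% of all windows, which says only that these letters do not occur there.

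The microRNA loci inside the pair are printed because they give the same mature product, with the seed (bases 2 to 8) in capitals.
MIR4435-1 hairpin, in CYTOR, chr2:87629755-87629834, plus strand: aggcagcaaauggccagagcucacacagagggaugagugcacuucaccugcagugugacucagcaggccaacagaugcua
MIR4435-2 hairpin, in MIR4435-2HG, chr2:111321013-111321086, minus strand: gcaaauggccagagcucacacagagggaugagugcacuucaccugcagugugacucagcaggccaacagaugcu
miR-4435, from either hairpin: aUGGCCAGagcucacacagagg
The whole 74-base hairpin of MIR4435-2 is contained in the 80-base hairpin of MIR4435-1. Of 2370 mature miRNAs in the RefSeq table, 1 had this seed, miR-4435 itself. Libraries of total RNA are not made to capture mature miRNAs, and these rows may hold fragments of the host transcripts. MIR4435-1 had 5, 7 and 5 reads in siC, 8, 2 and 5 in siIGF2BP1 and 6, 2 and 2 in siSRF. MIR4435-2 had 2, 2 and 5 reads in siC, 5, 11 and 10 in siIGF2BP1 and 3, 5 and 1 in siSRF. The read counts of both loci overlapped between siC and each depletion, and they are too few for a fold change of either.

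Because the copies are so alike, the split of reads between them is uncertain. Of all 75-base stretches in the annotated exons of CYTOR, 45.4% occurred letter for letter in exons of MIR4435-2HG, and 23.2% of those of MIR4435-2HG occurred in exons of CYTOR. These exons were merged from GENCODE v44 and came to 17782 bases for CYTOR and 34231 for MIR4435-2HG. The gene lengths given with the FPKM were 3456 and 8500 bases, so the shares are not those of the counted sequence. The read length and the treatment of reads that match several places are not given in the sources used here, so each level of this pair may contain reads of the other gene or lack reads of its own.

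In siC, the levels per length ran from MALAT1 over NEAT1 and CYTOR to MIR4435-2HG, and no neighbours in this order overlapped. MALAT1 was at 79.3, 96.1 and 81.2 FPKM in siC replicates 1 to 3, which made it the fifth of 2174 lincRNA genes above 0, between NORAD at 90.0 and LINC00704 at 55.5 FPKM. NEAT1 was at 16.8, 17.7 and 16.0 FPKM, rank 22, between RP3.410C9.2 at 17.4 and RP11.879F14.2 at 16.0 FPKM. CYTOR was at 13.1, 12.5 and 12.1 FPKM, rank 29, between LINC00472 at 12.7 and RP5.1085F17.3 at 12.3 FPKM. MIR4435-2HG was at 7.82, 7.36 and 7.99 FPKM, rank 52, next below EPB41L4A.AS1 at 7.89 FPKM. NEAT1, CYTOR and MIR4435-2HG thus lay within 1 SD of each lincRNA named beside them. MALAT1 took between 0.0708% and 0.126% of all reads on genes in the 9 libraries, and between 11.9% and 20.2% of the reads on lincRNA genes.

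**Figure D1:**
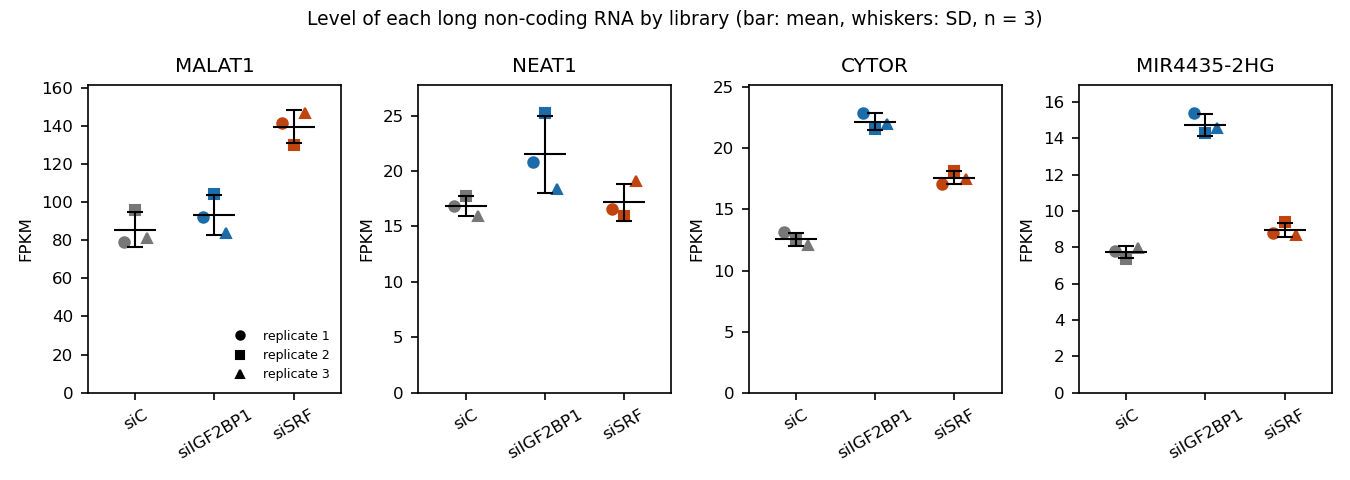
FPKM (vertical axis, from 0) of MALAT1, NEAT1, CYTOR and MIR4435-2HG in each library of siC, siIGF2BP1 and siSRF, with the marker shape giving the replicate, and bars and whiskers giving the mean and SD of 3 libraries. CYTOR and MIR4435-2HG are highest in siIGF2BP1, MALAT1 is highest in siSRF, and NEAT1 spreads from 18.4 to 25.3 FPKM within siIGF2BP1.

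Upon IGF2BP1 depletion, CYTOR and MIR4435-2HG were higher in every library than in any siC library, which is the pattern they were chosen for. CYTOR was at 22.9, 21.6 and 22.0 FPKM in siIGF2BP1, against 12.1 to 13.1 in siC, 1.77-fold the control mean (log2 fold change 0.82, SE 0.05). MIR4435-2HG was at 15.4, 14.3 and 14.6 FPKM, against 7.36 to 7.99 in siC, 1.91-fold the control mean (log2 fold change 0.92, SE 0.06). Both groups of libraries were tight, with coefficients of variation of 3.08% for CYTOR and 4.05% for MIR4435-2HG in siIGF2BP1. Of 22292 genes tested, 18.1% had every siIGF2BP1 library above every siC library, and 3.55% were called higher and 3.57% lower at an adjusted p of at most 0.01. Counted as 1 feature, the pair had a log2 fold change of 0.88 (SE 0.05). Among 514 lincRNA genes that averaged 1 FPKM or more, 48 had a larger log2 fold change than MIR4435-2HG and 67 a larger one than CYTOR.

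Upon SRF depletion, CYTOR rose as well, and MIR4435-2HG did not pass the test. This comparison used the same siC libraries as the one the pair was chosen by. CYTOR was at 17.1, 18.2 and 17.5 FPKM in siSRF, all above siC and all below siIGF2BP1, 1.40-fold the control mean (log2 fold change 0.48, SE 0.05, limma, adjusted p = 0.00179). MIR4435-2HG was at 8.79, 9.37 and 8.66 FPKM, again above every siC library and below every siIGF2BP1 library, 1.16-fold the control mean (log2 fold change 0.21, SE 0.06, limma, adjusted p = 0.0614). Its 95% interval reached from a rise of 3.88% to a rise of 28.6%, and that of CYTOR from 27.9% to 52.8%. Of 21857 genes tested, 20.9% had every siSRF library above every siC library, and 6.85% were called higher and 5.34% lower. The exact two-sided permutation p was 0.1 for each of the pair, the smallest that 3 libraries against 3 allow. The CYTOR call was lost without siSRF replicate 2 (limma, adjusted p = 0.0121) and without siSRF replicate 3 (0.0103), and over 18 alternatives its adjusted p lay between 2.2e-05 and 0.0173. CYTOR was at 0.33 (SE 0.06, limma, adjusted p = 0.00996) once trends along GC content and length were removed. As 1 feature the pair had a log2 fold change of 0.32 (SE 0.06, limma, adjusted p = 0.00825). With trends along GC content and length removed that of MIR4435-2HG was 0.09 (SE 0.05, limma, adjusted p = 0.308). Over the alternatives that kept it a separate gene, its adjusted p lay between 0.0282 and 0.308, so it was not called by itself.

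**Figure D2:**
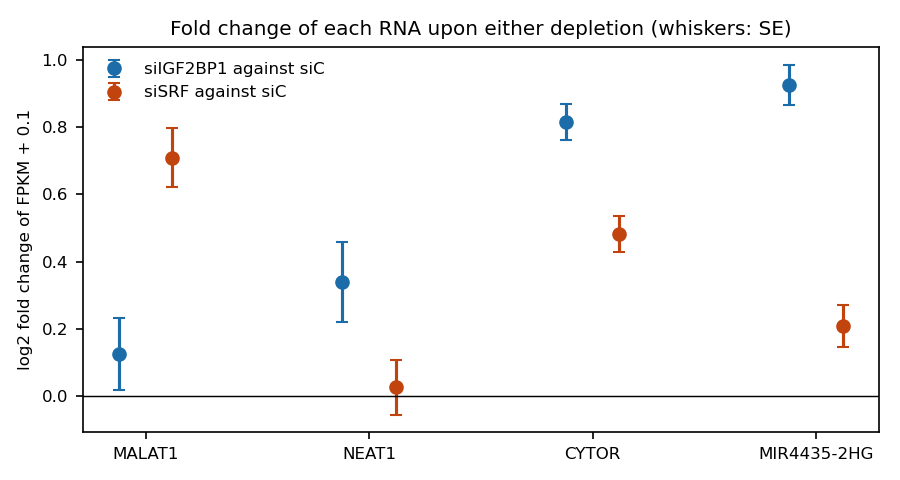
Log2 fold change of FPKM + 0.1 (vertical axis) of each of the 4 RNAs in siIGF2BP1 and in siSRF, each against siC, with whiskers of 1 SE. CYTOR and MIR4435-2HG stand at 0.82 and 0.92 in siIGF2BP1 and at 0.48 and 0.21 in siSRF, while MALAT1 stands at 0.13 and 0.71.

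In siSRF CYTOR stood higher relative to MIR4435-2HG than in the other groups, a difference that was not tested. The ratio of CYTOR to MIR4435-2HG was 1.68, 1.70 and 1.51 in the siC libraries, 1.49, 1.51 and 1.51 in the siIGF2BP1 libraries and 1.95, 1.94 and 2.02 in the siSRF libraries. Every siSRF library therefore lay above all others, whereas siIGF2BP1 and siC overlapped (between 1.49 and 1.51 against between 1.51 and 1.70). These ratios do not depend on how a library is scaled, since both values come from it, but they may differ under another assignment of shared reads.

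**Figure D3:**
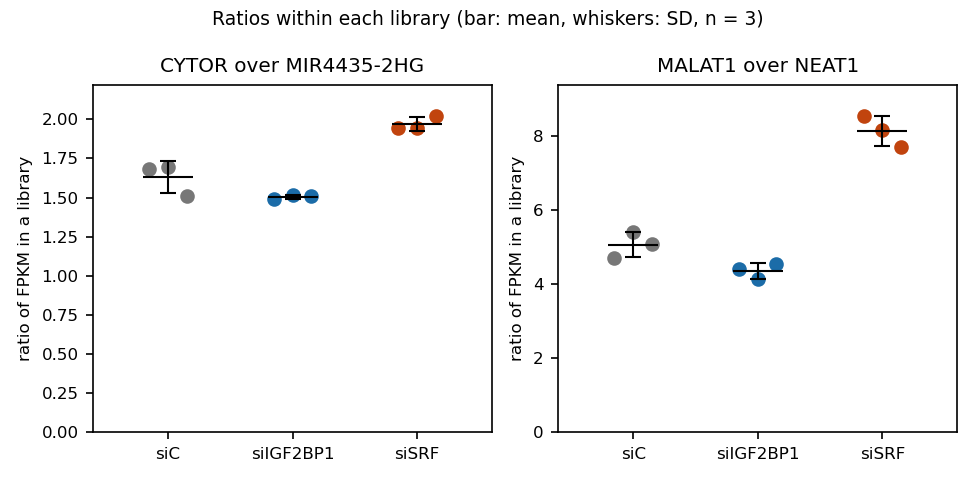
Ratio of CYTOR to MIR4435-2HG and of MALAT1 to NEAT1, both in FPKM, in each library of siC, siIGF2BP1 and siSRF (vertical axes from 0), with bars and whiskers for the mean and SD of 3 libraries. In siSRF both ratios lie above those of every other library, at 1.94 to 2.02 and at 7.71 to 8.54.

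MALAT1 rose upon SRF depletion. It was at 142, 130 and 147 FPKM in siSRF, against 79.3 to 96.1 in siC, 1.63-fold the control mean (log2 fold change 0.71, SE 0.09, limma, adjusted p = 0.00265, exact permutation p = 0.1). The lowest siSRF library lay well above the highest siC library, and MALAT1 was the lincRNA gene with the highest level in siSRF. In siIGF2BP1 MALAT1 was at 92.0, 104 and 83.6 FPKM, which overlapped with siC (log2 fold change 0.13, SE 0.11) and lay below every siSRF library. With 1 library left out that log2 fold change ranged from 0.04 to 0.21: it was 0.04 without siIGF2BP1 replicate 2, 0.20 without siIGF2BP1 replicate 3, 0.07 without siC replicate 1 and 0.21 without siC replicate 2, and 0.05 with trends along GC content and length removed. The siSRF call did not hold when 1 library was left out, with an adjusted p of 0.0111 without siC replicate 1, 0.0117 without siC replicate 3, and 0.0157, 0.0106 and 0.0132 without siSRF replicates 1, 2 and 3 (limma), except without siC replicate 2 (adjusted p = 0.00279). Over 17 alternatives its log2 fold change stayed between 0.60 and 0.80 and its adjusted p between 9.39e-13 and 0.0224.

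NEAT1 was not distinguishable from siC upon SRF depletion. It was at 16.6, 15.9 and 19.1 FPKM in siSRF, overlapping with the 16.0 to 17.7 of siC (log2 fold change 0.03, SE 0.08, limma, adjusted p = 0.866). The 95% interval reached from a change of -11.2% to one of 16.7%, and without siC replicate 3 or siSRF replicate 3 the sign turned (log2 fold change -0.01 and -0.05). In siIGF2BP1 NEAT1 was at 20.8, 25.3 and 18.4 FPKM, each above every siC library (log2 fold change 0.34, SE 0.12). This value was 0.14 (SE 0.09) with trends along GC content and length removed, and from 0.22 (without siIGF2BP1 replicate 2) to 0.44 with 1 library left out. The ratio of MALAT1 to NEAT1 was 4.72, 5.41 and 5.08 in siC, 4.42, 4.13 and 4.55 in siIGF2BP1 and 8.54, 8.17 and 7.71 in siSRF, so that siSRF lay above and siIGF2BP1 below every siC library.

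MALAT1 and NEAT1 spread more between libraries of a group than other genes of like depth. The SD within groups was 0.138 on the log2 scale for MALAT1 and 0.161 for NEAT1, larger than in 96.9% of 130 genes and 98.9% of 371 genes whose mean reads differed by a factor of at most 1.5. For CYTOR and MIR4435-2HG it was 0.0504 and 0.0593, near the 0.0673 and 0.0554 that counting error alone gives. MALAT1 and NEAT1 were both highest in replicate 2 of siC, in replicate 2 of siIGF2BP1 and in replicate 3 of siSRF, and both lowest in replicate 3 of siIGF2BP1 and replicate 2 of siSRF.

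The levels of NEAT1 and CYTOR lay apart in siC and overlapped in both depletions. In siC all NEAT1 libraries lay above all CYTOR libraries, while in siIGF2BP1 (18.4 to 25.3 against 21.6 to 22.9 FPKM) and in siSRF (15.9 to 19.1 against 17.1 to 18.2 FPKM) they did not differ beyond their spread. MIR4435-2HG remained the lowest of the 4 by FPKM in every library of every group. Its summed reads exceeded those of CYTOR, at 1355 against 895 in siC, 2938 against 1797 in siIGF2BP1 and 1802 against 1441 in siSRF. The gene length behind its FPKM was 8500 bases, against 3456 for CYTOR. By mean FPKM, CYTOR moved from rank 29 of the lincRNA genes in siC to rank 16 in siIGF2BP1 and 20 in siSRF, MIR4435-2HG from 52 to 27 and 48, NEAT1 from 22 to 17 and 21, and MALAT1 from 5 to 4 and 1.

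The short gene models at the nuclear pair held next to no reads. The rows for the tRNA-like RNA of MALAT1 and for the 3 short NEAT1 models had 0 reads in all 9 libraries, and that for the tRNA-like RNA of NEAT1 had 1 read in 1 siIGF2BP1 library. The 3 NEAT1 models lie inside the NEAT1 exon, which had between 2526 and 4197 reads per library, and the tRNA-like RNA of MALAT1 lies inside the GENCODE model of MALAT1, so that a row at 0 does not show absence of the RNA. AP000769.7, a lincRNA annotated on the opposite strand within the MALAT1 locus (chr11:65497640-65508073, plus strand), had at most 2 reads in a library. NEAT1 lies at chr11:65422774-65445540 on the same strand, and the table gives 1 value for both of its isoforms.

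Of 42 genes encoding paraspeckle proteins, 39 were tested, and upon IGF2BP1 depletion 0 were called higher and 4 lower, with a median log2 fold change of -0.11 against 0.02 over all genes tested. The 4 were 10.3% of those tested, against 3.57% of all genes called lower. Protein-coding genes alone were called more often than all genes, with 739 of 12512 lower in siIGF2BP1. HNRNPF, which guides splicing, fell from 140 ± 5.34 to 88.0 ± 2.31 FPKM (log2 fold change -0.67, SE 0.05, limma, adjusted p = 0.000585). The RNA-binding genes TAF15, RBM14 and DAZAP1 fell with log2 fold changes of -0.50, -0.40 and -0.37 (limma, adjusted p = 0.00511, 0.00789 and 0.00649). Of these 4, HNRNPF kept its call whichever 1 library was left out, and the other 3 lost it in every such fit. Upon SRF depletion 4 were called higher and 4 lower (median -0.05 against 0.01), each 10.3% of those tested against 6.85% and 5.34% of all genes. Of 12381 protein-coding genes tested there, 1373 were called higher and 1073 lower. That was 19.8% either way, near the 8 of 39 called in this list. AKAP8L, a nuclear anchoring protein, rose from 8.29 ± 0.601 to 18.1 ± 1.93 FPKM (log2 fold change 1.11, SE 0.10, limma, adjusted p = 0.000833). WTAP, a subunit of the m6A methyltransferase, rose by 0.45 on that scale (SE 0.05, limma, adjusted p = 0.00147). The cold-inducible RNA-binding genes RBM3 and CIRBP fell with log2 fold changes of -0.80 and -0.68 (limma, adjusted p = 0.000351 and 0.000867). Leaving out 1 library left between 3 and 6 calls in siSRF, and WTAP was then called in 4 of 6 fits.

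NONO, SFPQ and PSPC1, the core proteins of paraspeckles, were not called in either comparison. NONO was at 109 ± 0.724 FPKM in siC, 95.8 ± 2.82 in siIGF2BP1 and 98.2 ± 1.72 in siSRF (limma, adjusted p = 0.0224 and 0.0203). SFPQ was at 97.7 ± 4.81, 82.2 ± 1.68 and 102 ± 2.94 FPKM (limma, adjusted p = 0.0182 and 0.434). PSPC1 was at 14.2 ± 0.553, 14.6 ± 1.38 and 15.8 ± 0.819 FPKM (limma, adjusted p = 0.809 and 0.122).

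Of the 24 genes for proteins of nuclear speckles and their kinases, 23 were tested, and 0 rose and 2 fell upon IGF2BP1 depletion (median log2 fold change -0.13) while 4 rose and 0 fell upon SRF depletion (median 0.12). These were 8.70% against 3.57% of all genes called lower in siIGF2BP1, and 17.4% against 6.85% called higher in siSRF. Among protein-coding genes alone, 739 of 12512 were lower in siIGF2BP1 and 1373 of 12381 higher in siSRF, larger shares than over all genes. SRPK1, a kinase of SR splicing factors, fell from 40.2 ± 2.17 to 22.7 ± 0.528 FPKM in siIGF2BP1 (log2 fold change -0.82, SE 0.05, limma, adjusted p = 0.0005) and rose to 51.7 ± 1.95 FPKM in siSRF (0.36, SE 0.05, limma, adjusted p = 0.00515). The splicing factor SRSF2 fell in siIGF2BP1 with a log2 fold change of -0.34 (limma, adjusted p = 0.00533). In siSRF the kinase CLK1 and the SR-family genes SRSF9 and SRSF11 rose by 0.53, 0.51 and 0.41 on that scale (limma, adjusted p = 0.00142, 0.000501 and 0.0024). With trends along GC content and length removed, CLK1 and SRSF11 were at 0.27 and 0.18 (limma, adjusted p = 0.0294 and 0.0426). Leaving out 1 library left 1 call in siIGF2BP1, SRPK1, and between 2 and 4 in siSRF, where SRPK1 was then called in 0 of 6 fits.

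Genes for the cleavage and guarding of the ends of MALAT1 and NEAT1 were RNase P proteins, the tRNA-processing enzyme ELAC2 and METTL16, which binds the triple helix. Of 13, 0 rose and 2 fell among 12 tested in siIGF2BP1 (median log2 fold change -0.22), and 4 rose and 0 fell among 13 tested in siSRF (median 0.35). With so few genes, these were 16.7% against the 3.57% of all genes called lower in siIGF2BP1 and 30.8% against the 6.85% called higher in siSRF. The protein-coding genes called were 739 of 12512 for lower in siIGF2BP1 and 1373 of 12381 for higher in siSRF. The RNase P protein gene RPP38 fell from 7.60 ± 0.250 to 3.68 ± 0.396 FPKM in siIGF2BP1 (log2 fold change -1.03, SE 0.10, limma, adjusted p = 0.0016), and ELAC2 fell with a log2 fold change of -0.35 (limma, adjusted p = 0.00797). In siSRF the RNase P genes RPP40, POP1 and RPP30 rose by 1.03, 0.84 and 0.56 on the log2 scale (limma, adjusted p = 0.0032, 0.000673 and 0.00225), and METTL16 rose by 0.35 (limma, adjusted p = 0.00743). POP1 went from 11.6 ± 0.814 to 20.9 ± 0.763 FPKM and kept its call whichever 1 library was left out. Leaving out 1 library left between 0 and 1 calls in siIGF2BP1 and between 1 and 3 in siSRF.

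**Figure D4:**
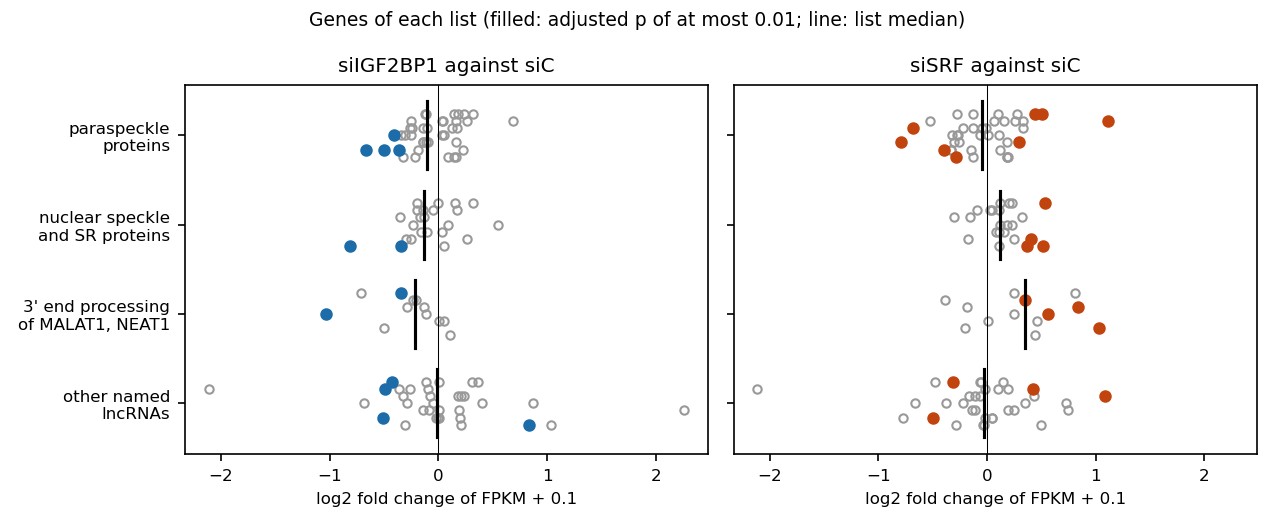
Log2 fold change of FPKM + 0.1 (horizontal axis) of each tested gene of 4 lists in siIGF2BP1 and siSRF, each against siC, with filled points for an adjusted p of at most 0.01 and a vertical line at the list median. For nuclear speckle and 3′ end processing genes the filled points lie below 0 in siIGF2BP1 and above 0 in siSRF.

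Among 10 genes reported as partners or targets of CYTOR, MIR4435-2HG or MALAT1, 1 of 9 tested fell in siIGF2BP1 and 1 of 9 rose in siSRF (11.1% each, against 3.57% and 6.85% of all genes). Protein-coding genes alone were called more often than all genes, as given above. NCL (nucleolin) fell from 168 ± 2.18 to 131 ± 3.26 FPKM in siIGF2BP1 (log2 fold change -0.36, SE 0.04, limma, adjusted p = 0.00257), and HNRNPC, an RNA-binding protein bound to MALAT1, rose from 100 ± 5.97 to 124 ± 4.46 FPKM in siSRF (0.31, SE 0.06, limma, adjusted p = 0.0098). With any 1 library left out NCL was not called (adjusted p between 0.0103 and 0.0186), and HNRNPC was called in 1 of 6 such fits and stood at 0.13 once trends along GC content and length were removed (limma, adjusted p = 0.0531). BCL2L11 encodes the death-promoting protein BIM, lies within the MIR4435-2HG locus on the opposite strand, and had between 16 and 63 reads in a library. It was at 0.726 ± 0.154 FPKM in siC, 1.09 ± 0.0957 in siIGF2BP1 and 0.44 ± 0.153 in siSRF (limma, adjusted p = 0.186 and 0.244). The library kit keeps the strand, but whether the counting used it is not given in the sources used here, so reads of such overlapping genes may not be separated.

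Of 40 other well-known long non-coding RNA genes, 34 were tested, and 1 rose and 3 fell upon IGF2BP1 depletion while 2 rose and 2 fell upon SRF depletion. In siIGF2BP1 2.94% were higher and 8.82% lower, against 3.55% and 3.57% of all genes, and in siSRF 5.88% went each way, near the 6.85% and 5.34% of all genes. LUCAT1 rose from 1.84 ± 0.170 to 3.37 ± 0.366 FPKM in siIGF2BP1 (log2 fold change 0.84, SE 0.13, limma, adjusted p = 0.0099). The snoRNA host genes SNHG3 and SNHG1 and the host gene DANCR fell there with log2 fold changes of -0.51, -0.42 and -0.49 (limma, adjusted p = 0.0041, 0.00381 and 0.00398). In siSRF the miRNA host gene MIR22HG rose from 3.53 ± 0.421 to 7.55 ± 0.371 FPKM (log2 fold change 1.08, SE 0.11, limma, adjusted p = 0.00124) and SNHG7 rose by 0.42 (limma, adjusted p = 0.00225). NORAD, a cytoplasmic RNA that binds Pumilio proteins, and SNHG6 fell with log2 fold changes of -0.50 and -0.31 (limma, adjusted p = 0.00617 and 0.00356). With trends along GC content and length removed, SNHG7 was at 0.66 and SNHG6 at -0.51. Of the genes named here MIR22HG alone kept its call whichever 1 library was left out, and the leave-one-out fits called between 0 and 2 of the list in siIGF2BP1 and between 1 and 3 in siSRF. Over all 1702 lincRNA genes tested in siIGF2BP1, 30 were called higher and 12 lower, and of 1549 tested in siSRF, 24 were higher and 28 lower.

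Around MALAT1 and NEAT1, more genes were called lower than higher in siSRF. Within 500 kb of either lay 88 other genes, of which 54 were tested in siSRF, where 2 were called higher and 10 lower, with a median log2 fold change of -0.28 against 0.01 over all genes tested. The genes called higher were 3.70% of those tested, against 6.85% of all genes, and those called lower 18.5%, against 5.34%. The neighbours called were all protein-coding genes, which were called more often than all genes. Of 12381 protein-coding genes tested in siSRF, 1373 were called higher and 1073 lower. The endosomal adaptor gene AP5B1 fell from 8.68 ± 0.499 to 3.02 ± 0.573 FPKM (log2 fold change -1.51, SE 0.14, limma, adjusted p = 0.00111). LTBP3, which stores latent TGF-beta in the matrix, fell from 7.51 ± 0.553 to 3.84 ± 0.307 FPKM in siSRF (-0.95, SE 0.09, limma, adjusted p = 0.00132) and rose to 10.5 ± 0.417 FPKM in siIGF2BP1 (0.48, SE 0.08, limma, adjusted p = 0.00841). ARL2, a small GTPase, fell to 29.2 ± 0.740 FPKM in siSRF from 45.4 ± 2.67 in siC, and the trafficking gene VPS51 fell with a log2 fold change of -0.58 (limma, adjusted p = 0.000826 and 0.000587). With trends along GC content and length removed, all 4 moved towards 0 and stayed called. VPS51 was then at -0.34, LTBP3 at -0.68, AP5B1 at -1.30 and ARL2 at -0.48, where ARL2 had been at -0.63. Each of these 4 siSRF calls held whichever 1 library was left out, while the count of calls then lay between 4 and 10.

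In siIGF2BP1, 58 of these neighbours were tested, with 1 higher and 5 lower (median log2 fold change -0.21), 1.72% and 8.62% of those tested against 3.55% and 3.57% of all genes. Of 12512 protein-coding genes tested there, 691 were called higher and 739 lower. SSSCA1 and FAM89B fell with log2 fold changes of -0.97 and -0.96 (limma, adjusted p = 0.00236 and 0.00155), ARL2 fell to 32.6 ± 0.929 FPKM (limma, adjusted p = 0.00312), and the AP-1 subunit gene FOSL1 fell from 158 ± 9.49 to 112 ± 9.17 FPKM (-0.50, SE 0.08, limma, adjusted p = 0.00774). FOSL1 was at 158 ± 7.92 FPKM in siSRF (limma, adjusted p = 0.998). Leaving out 1 library left between 1 and 3 calls, FAM89B being called in 6 of 6 fits, SSSCA1 and ARL2 in 2 and FOSL1 in 0. With trends along GC content and length removed, FAM89B was at -0.77, SSSCA1 at -0.76 and FOSL1 at -0.41. ARL2 was then at -0.40, against -0.48 before.

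**Figure D5:**
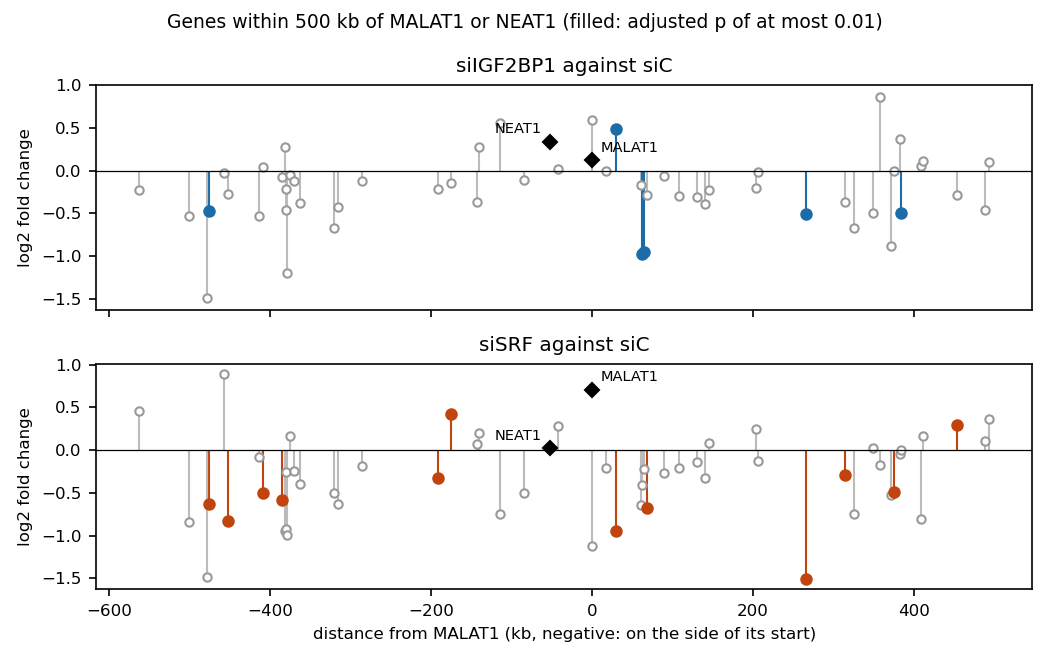
Log2 fold change (vertical axes) of the 54 genes tested in both comparisons within 500 kb of MALAT1 or NEAT1, by their distance from MALAT1 in kb (horizontal axis), for siIGF2BP1 and siSRF against siC. Filled points have an adjusted p of at most 0.01, and diamonds mark MALAT1 and NEAT1. In siSRF, MALAT1 at 0.71 stands above neighbours of which 10 were called lower and 2 higher.

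None of the tested neighbours of CYTOR or MIR4435-2HG was called in either comparison by limma-trend. In siIGF2BP1 the median log2 fold change of the MIR4435-2HG neighbours was 0.67, with 11 of 15 above 0. That of the CYTOR neighbours was 0.22, with 9 of 15 above 0, against 0.02 over all genes tested. In siSRF the medians were -0.02 (7 of 16 above 0) and 0.10 (9 of 16), against 0.01 over all genes tested. Of 15 neighbours of CYTOR tested in siIGF2BP1, 3 had an unadjusted p under 0.05 and limma-voom, run on whole reads, called 1 (AC093616.4), and of 16 in siSRF, 2 had such a p and voom called 1 (KRCC1). Of 15 neighbours of MIR4435-2HG tested in siIGF2BP1, 5 had such a p and voom called 2 (RGPD6 and AC108463.2), and of 16 in siSRF, 2 had such a p and voom called 1 (ANAPC1). In each case between 8 and 10 of the tested genes had a mean of under 10 reads, and the part of depth in these counts was not tested. The genes called by voom are named after their values were seen.

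The genes whose levels followed each RNA most closely over the 9 libraries, among 14168 genes that averaged 1 FPKM or more, were different for each of the 4. The likeness is Pearson's r of log2(FPKM + 0.1), given as a description, since the points share the 3 groups and their library scales, and since the choice by likeness fixes how the chosen genes differ between groups. The choice also depends on the measure: the 5 most alike by Spearman's rho shared 1 gene with these for NEAT1 and 0 for the others. CYTOR was most like PXDN (r = 0.994), CD82 (0.992), LRIG1 (0.986), PPT1 (0.985) and IL7R (0.983). PXDN, a peroxidase that crosslinks collagen IV, went from 9.06 ± 0.177 in siC to 21.4 ± 1.32 in siIGF2BP1 and 14.7 ± 0.457 FPKM in siSRF, and CD82, a tetraspanin, from 5.62 ± 0.151 to 17.7 ± 1.28 and 11.0 ± 0.380 FPKM. MIR4435-2HG was most like MTMR2 (r = 0.992), ITGB1 (0.991), CAV1 (0.990), FBN1 (0.989) and NXN (0.988). ITGB1, the integrin beta-1 subunit, went from 82.8 ± 8.51 to 239 ± 8.88 and 106 ± 1.56 FPKM, and FBN1, which encodes the matrix protein fibrillin-1, from 2.94 ± 0.235 to 14.6 ± 0.603 and 3.99 ± 0.274 FPKM.

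MALAT1 was most like MYCBP2 (r = 0.978), CFLAR (0.977), ARMC5 (0.965), C17orf80 (0.963) and ALG5 (0.963). CFLAR, an inhibitor of caspase-8, was at 2.11 ± 0.159 in siC, 2.24 ± 0.133 in siIGF2BP1 and 3.40 ± 0.0874 FPKM in siSRF. NEAT1 was most like MIR424 (r = 0.952), RP11.290D2.3 (0.927), ZNF292 (0.925), ARID1B (0.914) and PNISR (0.907), of which MIR424 and RP11.290D2.3 had means of 2.33 and 3.44 reads only. ZNF292, a zinc finger gene, was at 5.45 ± 0.127, 7.99 ± 0.925 and 6.08 ± 0.401 FPKM. Between the 4 RNAs themselves, r was 0.910 for CYTOR with MIR4435-2HG, rank 175 of 14167 genes by likeness to CYTOR, and -0.01 for MALAT1 with NEAT1.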

How the data were processed

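ES-2 total RNA was depleted of rRNA with RiboCop and sequenced on an Illumina NextSeq 500. According to the methods and the processing notes, the authors clipped reads with cutadapt 1.14, aligned them to hg38 with HISAT2 2.1.0, counted them on Ensembl genes with featureCounts 1.5.3 and applied TMM normalization in edgeR 3.18.1. Strand setting and treatment of multi-mapping reads are not given in the sources used here. The authors deposited FPKM per library. The deposited tables also hold gene length, log2 fold changes and p-values with FDR of the authors' own comparisons, of which only the length was used.

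FPKM times length gave whole reads for 100% of values (tolerance 0.01). Each depletion was compared with siC by limma 3.58.1 (trend) in R 4.3.3 on log2(FPKM + 0.1), a scale that understates changes of low genes, for genes averaging 0.1 FPKM or more over the 6 libraries, with Benjamini-Hochberg adjustment over all genes tested and calls at an adjusted p of at most 0.01. Fits were tested on simulated data. Coordinates are from GENCODE v44 on hg38, later than the counting annotation, and sequences from RefSeq (GRCh38.p14), whose start windows covered 3 of the 4 genes. NEAT1 had no entry.

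The members and lists were chosen with earlier results of these data known. Genes named are the members, IGF2BP1, SRF, NONO, SFPQ, PSPC1, BCL2L11, the 5 genes most like each member, the lincRNA ranked next to each in siC, and up to 4 called genes with the smallest p per list, neighbourhood and comparison. Motif matches, the ratios and the order of libraries were added after the values were seen. Alternatives were other pseudocounts, filters, scalings, thresholds and fits, a replicate block, limma-voom on recovered reads, the pair as 1 feature, and leaving out each library. Removing trends along GC content and length, and a minimum of 10 reads, were added after the data were seen. Intervals cover the spread between libraries. Some marker and lincRNA values are not reported here.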

Additional observations from a re-analysis of the deposited data

Results flagged for a closer look

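With 3 libraries per group, no group was large enough for a test of single outlying libraries. For 16 of 44 genes examined (the members, the core paraspeckle genes, BCL2L11 and the called list genes and neighbours named above), every siIGF2BP1 library lay on one side of the siC mean and every siSRF library on the other, and the difference between the depletions was not tested. That is 36.4%, against 18.2% of the 21108 genes tested in both comparisons, but most of the 44 were named because they were called in one comparison, and the depletions share the siC libraries. None of the 4 long non-coding RNAs was among them. In the order siIGF2BP1 and siSRF, the log2 fold changes against siC were -0.82 and 0.36 for SRPK1, -0.34 and 0.11 for SRSF2, -0.35 and 0.25 for ELAC2, -0.29 and 0.84 for POP1, -0.13 and 0.56 for RPP30, and -0.20 and 0.35 for METTL16. They were -0.25 and 0.06 for SFPQ, -0.11 and 0.45 for WTAP, -0.36 and 0.12 for NCL, and -0.15 and 0.31 for HNRNPC. Among other long non-coding RNAs they were -0.42 and 0.15 for SNHG1, -0.51 and 0.05 for SNHG3, -0.26 and 0.42 for SNHG7, and 0.20 and -0.50 for NORAD. BCL2L11, inside the MIR4435-2HG locus, stood at 0.55 and -0.64, and LTBP3, the neighbour 30.5 kb from MALAT1, at 0.48 and -0.95. LTBP3 and SRPK1 alone of these were called in both comparisons. The siSRF call of SRPK1 held in 0 of 6 fits with 1 library left out. The siIGF2BP1 call of LTBP3 was lost without siC replicate 2 and without siIGF2BP1 replicate 2 or 3. In those fits FAM89B was the only neighbour of MALAT1 or NEAT1 that was called.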

How the results depend on the processing

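The members had between 895 and 28712 reads per group, and the effect of depth was not tested. The calls of MALAT1 and CYTOR in siSRF lay near the threshold. The cause of the changes below was not tested. Deviations of same-numbered libraries from their group means correlated between -0.02 and 0.02 over 14168 genes. These values show no shared replicate effect, but they cannot tell whether the libraries were paired, which is not given. With the replicate block, which leaves fewer degrees of freedom, MALAT1 and CYTOR kept their log2 fold changes of 0.71 and 0.48 in siSRF at adjusted p of 0.0224 and 0.0173 (limma), and 91 genes were called in siIGF2BP1 and 501 in siSRF, against 1588 and 2665 without it. Of the lists and neighbours, the block called 0 in siIGF2BP1. Other counts of called genes were 3805 and 5123 with limma-voom, 2760 and 4071 with at least 10 reads, and 2475 in siIGF2BP1 with all 9 libraries in one fit. Leaving out 1 library gave 436 to 738 and 946 to 1796 calls. The log2 fold changes in siSRF then ranged from 0.66 to 0.80 for MALAT1, 0.46 to 0.52 for CYTOR and -0.0506 to 0.0795 for NEAT1, which turned to -0.01 without siC replicate 3 and -0.05 without siSRF replicate 3. Those of MIR4435-2HG ranged from 0.17 to 0.23, and in siIGF2BP1 those of MALAT1 from 0.04 to 0.21 and of NEAT1 from 0.22 to 0.44. As 1 feature, CYTOR and MIR4435-2HG were at 0.88 in siIGF2BP1 and 0.32 in siSRF, where the pair as a whole was called. MIR4435-2HG by itself was called in no alternative. In siIGF2BP1, GC content and gene length taken out gave 0.14 for NEAT1 and 0.85 for MIR4435-2HG, and a pseudocount of 1 gave 0.85 for MIR4435-2HG. Apart from these and the calls of MALAT1 and CYTOR lost with 1 library left out, given above, every alternative kept direction and side of the threshold for the members in siSRF. Limma-voom made all 18 calls of named list genes, markers and neighbours in siIGF2BP1 and all 23 in siSRF, and 20 of those in siSRF held once trends along GC content and length were removed. Only 3 of the 18 in siIGF2BP1 and 12 of the 23 in siSRF held whichever 1 library was left out. By Spearman's rho, the 5 most alike genes shared 1 with those by Pearson's r for NEAT1 and 0 for the others. The planned edgeR and DESeq2 fits were not run, since FPKM were deposited and limma-voom was used on the recovered reads.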
